A study of Mus musculus with 8 samples.

Results

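The mitosis genes described here are 43 genes for mitotic kinases, kinesins, centromere proteins and spindle proteins. They were taken by symbol from a list of names, not by a threshold on their values, out of the 56748 genes of the deposited count table. The list was chosen with earlier results of these data known. All 43 were found under 1 identifier each and passed the filter on low counts, which kept 21508 genes. Their transcripts were counted in 8 bulk libraries of cells positive for the red reporter tdTomato, sorted at postnatal day 10 from the apical papilla of mouse mandibular molars and labelled as CXCL12-positive. The 4 cHet libraries are Ctnnb1(+/-) and the 4 cKO libraries Ctnnb1(-/-), and every animal received tamoxifen at postnatal day 3, so the controls also carry 1 deleted copy of the gene for beta-catenin. The sources used here do not name the recombinase or its driver, and the tissue is labelled dental pulp while the protocol speaks of dental follicle cells. The labels do not say whether libraries came from separate animals, so p-values measure the spread between libraries, which may be technical.

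Mitosis follows DNA replication and separates the copied chromosomes. The kinase CDK1 with its B cyclins starts it, Aurora and Polo kinases build the spindle, kinetochores tie chromosomes to microtubules, a checkpoint delays separation until all are attached, and the anaphase promoting complex then destroys the cyclins. The genes are transcribed mainly late in the cell cycle, so in bulk RNA their level is widely used as a readout of dividing cells. In the growing tooth root, dividing cells of the apical papilla supply the pulp and the dentin-forming odontoblasts. In these libraries, fewer dividing cells and less mitotic RNA per cell cannot be told apart.

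Total counts lay between 44444033 and 50051392 per library. Ctnnb1 (ENSMUSG00000006932.18) had a log2 fold change of 0.11 (SE 0.15, edgeR adjusted p = 0.785), but its count sums the whole gene and does not check the deletion. Cxcl12, the chemokine gene that names the sorted cells, was at 66.4 to 268 CPM (counts scaled to the library total) in cHet and 491 to 1001 CPM in cKO (log2 2.47, SE 0.46, edgeR adjusted p = 0.0497), so the defining marker itself differed between the groups. Omp, a marker of olfactory sensory neurons, which the label does not name, stood between 1739 and 3940 CPM in all 8 libraries.

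All 43 mitosis genes had a lower fitted level in cKO than in cHet. Levels are CPM scaled with trimmed-mean factors, and changes are log2 fold changes of cKO over cHet from edgeR's quasi-likelihood test. The log2 fold changes ran from −1.40 for Nusap1 to −0.22 for Mad2l1, with a median of −0.82, while the median of all tested genes was −0.0267. Of all tested genes, 52.5% had a log2 fold change below 0. By the Benjamini-Hochberg adjusted p over all tested genes, with a threshold of 0.05, 1 mitosis gene was lower and 0 were higher; the lower one was Cdca8. Across all tested genes 0.0558% were called lower and 1.08% higher. At an unadjusted p under 0.05, 26 of the 43 (60.5%) were lower and 0 higher, beside 6.33% of all tested genes lower and 10.8% higher. In 13 of the 43, all 4 cKO libraries lay below all 4 cHet libraries, and in 0 above, beside 3.68% and 6.46% of all tested genes. The members share cells and regulators and are not independent of one another, so these shares describe the list and were not tested.

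The pattern was carried by most libraries but not equally. Each of the 43 genes had its highest value in a cHet library, cHet12 for 32 of them, cHet14 for 9 and cHet11 for 2. The lowest value lay in a cKO library for 41, cKO7 for 25 of them and cKO9 for 10, and in cHet8 for 2. Summed over the 43 genes, the level was 753 CPM in cHet8, 772 in cHet11, 1251 in cHet12 and 1006 in cHet14. The sum was 437 CPM in cKO7, 627 in cKO9, 582 in cKO14 and 651 in cKO15. The sums of the groups did not overlap, although cHet8 lay nearer to cKO15 than to cHet12. Counts behind single values lay between 77 and 5546.

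**Figure D1:**
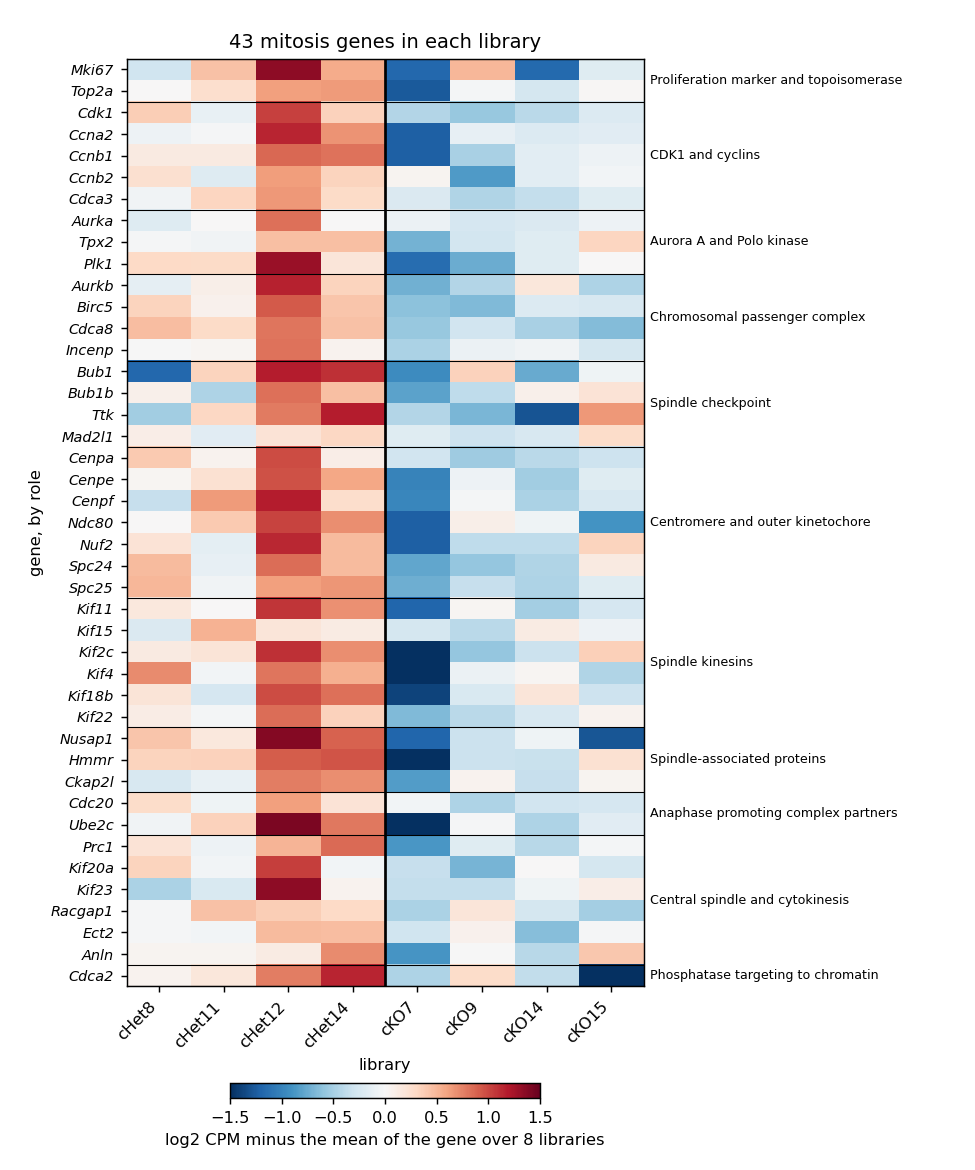
Each row is a mitosis gene, grouped by role, and each column a library, with cHet left of the line and cKO right. Colour gives log2 CPM minus the mean of the gene over 8 libraries; cHet12 holds the highest value for 32 of the 43 genes and cKO7 the lowest for 25.

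Shared regulation of mitosis genes is known to run through the cell cycle genes homology region (CHR), bound by the DREAM and B-MYB complexes, and through CCAAT boxes, bound by NF-Y. The start regions of the members were therefore read for these motifs, in RefSeq windows of 250 bases before to 50 after each start site (build GRCm38.p6), in which 36 of the 43 members had an entry. A CHR, spelled TTTGAA or TTCGAA on either strand, was found in 30 of the 36 (83.3%), beside 21.7% of 27025 genes with a window and 18.0% of 14030 tested genes. A CCAAT box, spelled CCAAT, was found in 28 of the 36 (77.8%), beside 41.1% of all genes with a window. Genes of DNA replication and G1/S held a CCAAT box nearly as often, in 21 of 31 (67.7%). Both were found in 26 of the 36 (72.2%), beside 8.61% of all. Within 50 bases on either side of the start, 28 of the 36 (77.8%) held a CHR, beside 6.12% of all genes with a window.

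Other motifs were less frequent among the members. An E2F motif, spelled TTTCGCGC, TTTGGCGC or TTTCCCGC, was found in 2 of the 36 (5.56%), beside 2.12% of all genes with a window and 15 of 31 (48.4%) genes of DNA replication and G1/S. Those 31 genes held a CHR in 7 (22.6%). A TCF/LEF motif, the kind through which beta-catenin acts, was searched as CTTTGAT, with CTTTGAA as another spelling, and likewise CTTTGTT and, last, CTTTGTA. It was found in 8 of the 36 (22.2%), beside 18.9% of all genes with a window and 15.4% of 14030 tested genes. In 3 of the 8 it was found only as CTTTGAA, which contains a CHR. A match shows the letters in this window and no binding.

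The stretch around the start is shown for the 4 members with the smallest p among those with a CHR in it (Cdca8, Spc25, Cenpa and Cdk1). Nusap1 and Mad2l1, with the lowest log2 fold change and the one nearest 0, are shown beside them; neither holds a CHR or a CCAAT match in the stretch. Each run of 130 bases goes from 100 before the start site through the 30 bases from it on, read 5′ to 3′ on the strand of the gene, with CHR and CCAAT matches (ATTGG on the other strand) in capitals.
Cdca8, chr4:124936888-124937017, minus strand: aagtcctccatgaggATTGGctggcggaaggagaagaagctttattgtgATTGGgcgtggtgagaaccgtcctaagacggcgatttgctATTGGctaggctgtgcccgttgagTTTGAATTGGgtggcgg
Spc25, chr2:69206184-69206313, minus strand: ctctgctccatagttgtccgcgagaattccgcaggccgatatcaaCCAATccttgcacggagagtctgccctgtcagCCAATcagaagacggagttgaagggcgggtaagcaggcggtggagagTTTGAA
Cenpa, chr5:30666786-30666915, plus strand: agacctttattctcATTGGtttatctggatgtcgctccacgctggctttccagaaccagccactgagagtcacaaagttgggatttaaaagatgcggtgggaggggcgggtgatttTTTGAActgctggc
Cdk1, chr10:69352883-69353012, minus strand: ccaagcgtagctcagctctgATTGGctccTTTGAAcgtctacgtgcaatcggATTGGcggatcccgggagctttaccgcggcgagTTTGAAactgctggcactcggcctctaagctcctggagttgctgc
Nusap1, chr2:119618198-119618327, plus strand: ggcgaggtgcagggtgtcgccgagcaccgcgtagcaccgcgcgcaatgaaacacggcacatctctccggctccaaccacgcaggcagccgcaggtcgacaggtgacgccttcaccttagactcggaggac
Mad2l1, chr6:66535121-66535250, plus strand: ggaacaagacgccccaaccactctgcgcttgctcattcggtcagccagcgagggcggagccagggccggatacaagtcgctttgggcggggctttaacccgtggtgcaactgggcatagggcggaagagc
In the Cdca8 stretch the CHR shares its last base with an ATTGG. The 30 members with a CHR match had a median log2 fold change of −0.82. Of them, 18 were lower at an unadjusted p under 0.05, beside 6.33% of all tested genes. The 6 members with a window but no CHR match were Birc5, Ccnb1, Cenpe, Mad2l1, Nuf2 and Nusap1. Their median was −0.89, and 4 of them were lower at that level. The difference between these sets was not tested.

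**Figure D2:**
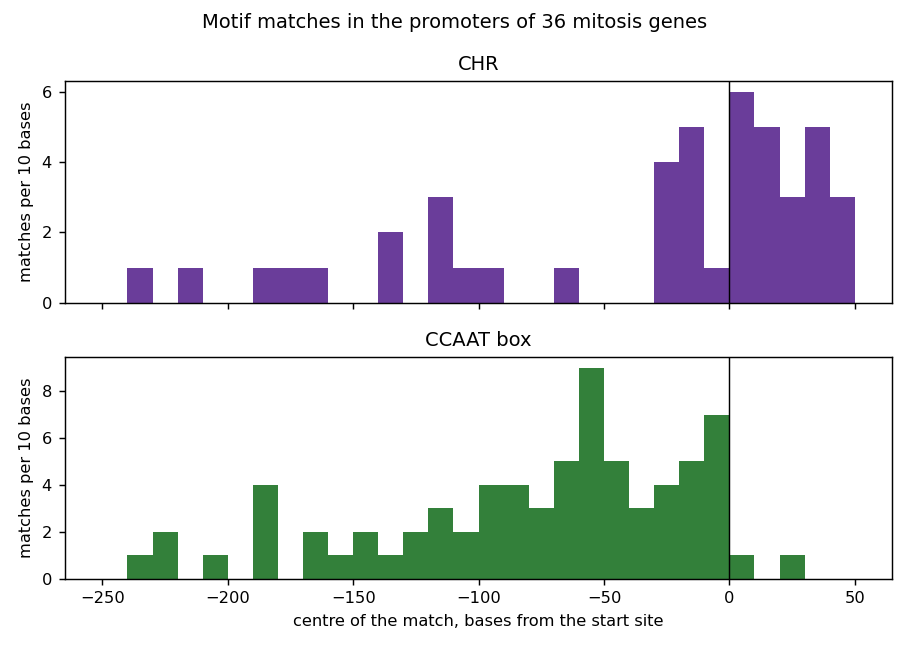
Histograms give the number of CHR matches (upper) and CCAAT matches (lower) per 10 bases, by distance of the match's centre from the start site, over the 36 mitosis genes with a promoter entry; Prc1 and Ect2 have more than 1 start site each. In 20 of the genes a CHR starts between 0 and 45 bases after the start site.

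The chromosomal passenger complex held the called gene. This complex of the kinase Aurora B (Aurkb), survivin (Birc5), borealin (Cdca8) and the scaffold INCENP corrects faulty attachments of chromosomes and guides the last step of division. Cdca8 (ENSMUSG00000028873.17) stood at 25.2, 22.4, 31.9 and 24.7 CPM in cHet8, cHet11, cHet12 and cHet14, and at 12.3, 15.0, 13.1 and 11.7 CPM in cKO7, cKO9, cKO14 and cKO15. Every cKO library lay below every cHet library, with a gap from 15.0 to 22.4 CPM. Cdca8 fell 2.002-fold, from 26.1 ± 4.10 to 13.02 ± 1.45 CPM (SD, n = 4 each, log2 −1.001, SE 0.17, edgeR adjusted p = 0.0406, exact permutation p = 0.0286, the smallest that 4 against 4 libraries allow). Its call held without cKO9 and ended when any other single library was left out, with an edgeR adjusted p of up to 0.148. Over all these fits the log2 fold change stayed between −1.08 and −0.89. In the GENCODE annotation of GRCm38 its exons overlap those of 9930104L06Rik on the opposite strand, and the library kit does not mark strand. That gene had a log2 fold change of −0.06 (SE 0.16, edgeR adjusted p = 0.905).

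Of the other subunits edgeR and voom called 0, with 1 of the 3, Birc5, at an unadjusted p under 0.05 by edgeR, and DESeq2 called Birc5 (adjusted p = 0.00445). Birc5, which targets the complex to centromeres, stood at 14.0, 11.5, 21.0 and 14.7 CPM in cHet8, cHet11, cHet12 and cHet14 and at 7.22, 7.01, 9.58 and 9.36 CPM in cKO7, cKO9, cKO14 and cKO15. No value of one group reached the other (log2 −0.88, SE 0.24, edgeR adjusted p = 0.127). Incenp had 15.9, 16.3, 28.1 and 16.6 CPM in cHet8, cHet11, cHet12 and cHet14, and 11.5, 15.0, 15.3 and 13.2 in the cKO libraries in the same order as above. Its groups were separate by a narrow margin, with cHet12 far above the rest (log2 −0.48, SE 0.24, edgeR adjusted p = 0.343). Aurkb ran from 8.17 to 19.99 CPM in cHet and from 5.44 to 10.1 CPM in cKO, so that its groups overlapped (log2 −0.78, SE 0.34, edgeR adjusted p = 0.297).

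**Figure D3:**
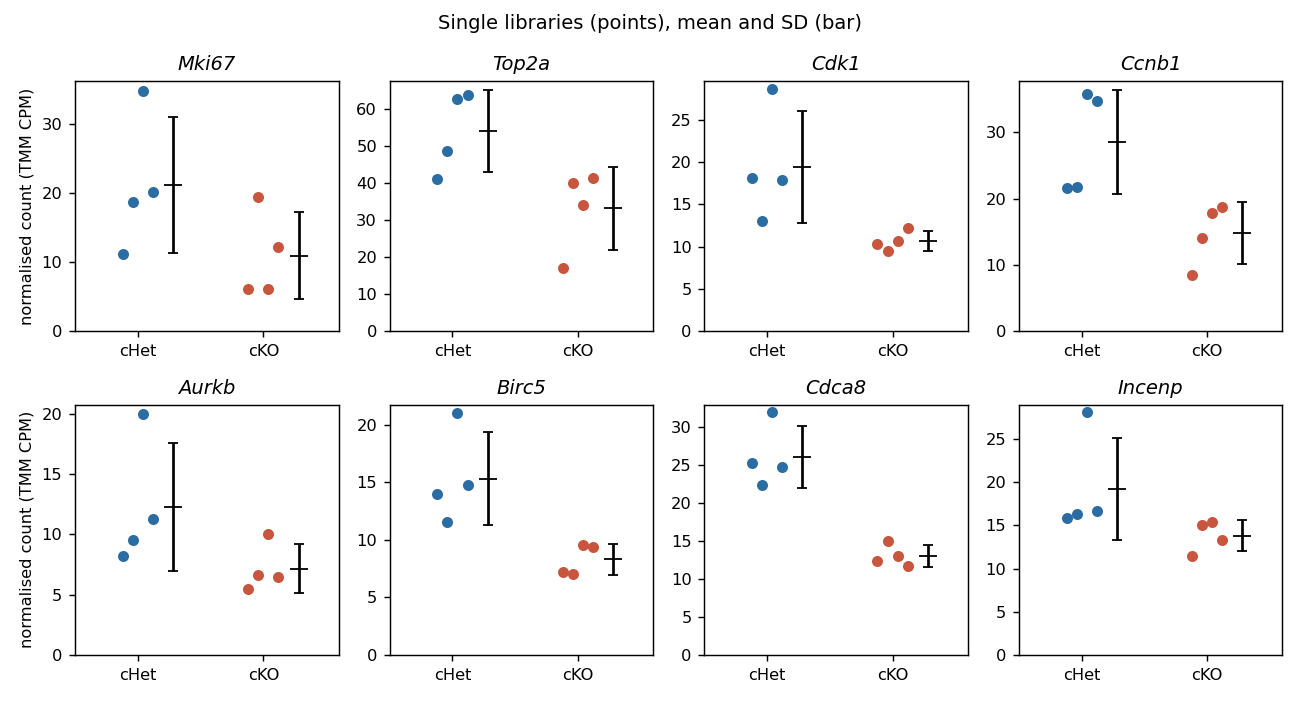
Points are single libraries of cHet (blue) and cKO (red), and bars mean and SD of 4, in CPM on axes from 0. The cHet and cKO points are separate for Cdk1, Ccnb1, Birc5, Cdca8 and Incenp and overlap for Mki67, Top2a and Aurkb.

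The proliferation marker Mki67, whose protein coats mitotic chromosomes, varied more between libraries than most members. It stood at 11.2, 18.7, 34.8 and 20.2 CPM in cHet8, cHet11, cHet12 and cHet14, and at 6.09, 19.4, 6.13 and 12.2 CPM in cKO7, cKO9, cKO14 and cKO15. The value in cKO9 lay above those of cHet8 and cHet11, and the groups overlapped (log2 −0.95, SE 0.47, edgeR adjusted p = 0.347). Top2a, the topoisomerase that untangles chromosomes, had 41.2, 48.6, 62.7 and 63.8 CPM in the cHet libraries in the same order and 17.1, 40.1, 34.2 and 41.4 CPM in cKO. Only the lowest cHet value, in cHet8, was reached by a cKO library (log2 −0.70, SE 0.28, edgeR adjusted p = 0.253).

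Among CDK1 and its cyclins, 4 of 5 genes had groups that did not overlap, beside 3.68% of all tested genes with cKO below cHet. None passed over all genes by edgeR, while DESeq2 called Cdk1, Ccnb1 and Cdca3, beside 3.97% of all tested genes lower. At an unadjusted p under 0.05, 4 of the 5 were lower, beside 6.33% of all tested genes. Cdk1, the kinase that drives entry into mitosis, stood at 18.1, 12.97, 28.6 and 17.9 CPM in cHet8, cHet11, cHet12 and cHet14 and at 10.3, 9.47, 10.6 and 12.2 CPM in cKO7, cKO9, cKO14 and cKO15. The cKO libraries lay close together, with an SD of 1.14 CPM beside 6.58 in cHet (log2 −0.86, SE 0.26, edgeR adjusted p = 0.150). Ccnb1, the cyclin B1 gene, stood at 21.6, 21.8, 35.8 and 34.8 CPM in cHet and 8.43, 14.1, 17.8 and 18.8 CPM in cKO, in the same order (log2 −0.95, SE 0.30, edgeR adjusted p = 0.172). Cdca3, an adaptor in the destruction of the CDK1 inhibitor WEE1, had 12.8, 16.5, 20.7 and 16.2 CPM in cHet and 11.4, 9.71, 10.3 and 11.7 CPM in cKO, in the same order (log2 −0.62, SE 0.20, edgeR adjusted p = 0.178). Ccna2, encoding cyclin A2, ranged from 19.6 to 45.7 and from 8.85 to 19.0 CPM. Ccnb2, the cyclin B2 gene, was the one of the 5 whose groups overlapped (log2 −0.50).

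The 7 centromere and outer kinetochore genes had closely similar log2 fold changes, between −0.997 and −0.80. Of these 7 genes, 6 had an unadjusted p under 0.05 and 3 had groups that did not overlap, beside 6.33% and 3.68% of all tested genes lower. Spc25, a subunit of the NDC80 complex that grips microtubules, stood at 24.4, 16.7, 26.4 and 27.3 CPM in cHet8, cHet11, cHet12 and cHet14 and at 10.4, 13.7, 12.6 and 15.3 CPM in cKO7, cKO9, cKO14 and cKO15. Its adjusted p was the next smallest after that of Cdca8 (log2 −0.87, SE 0.21, edgeR adjusted p = 0.0916). Cenpa, the histone variant that marks centromeres, stood at 26.6, 21.1, 39.8 and 21.7 CPM in cHet and at 16.5, 13.9, 15.3 and 16.3 CPM in cKO, in the same order. The cKO values of Cenpa spanned less than 3 CPM (log2 −0.81, SE 0.22, edgeR adjusted p = 0.126). Cenpe, a kinesin that moves chromosomes to the spindle equator, had 13.8, 15.8, 26.1 and 20.1 CPM in cHet and 6.71, 12.8, 9.36 and 11.9 CPM in cKO, in the same order (log2 −0.89, SE 0.28, edgeR adjusted p = 0.174). The other NDC80 complex genes, Ndc80, Nuf2 and Spc24, and Cenpf, a late cell cycle kinetochore protein, had overlapping groups.

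Of the 4 spindle checkpoint genes, 0 had an unadjusted p under 0.05, beside 6.33% of all tested genes lower. The checkpoint genes encode kinases and adaptors that hold back the anaphase promoting complex. Mad2l1, which binds CDC20 directly, had the smallest difference of the 43, with 15.8 to 22.0 CPM in cHet and 14.3 to 21.5 CPM in cKO (log2 −0.22, SE 0.19). Bub1, Bub1b and Ttk had log2 values of −0.87 (SE 0.52), −0.47 (SE 0.32) and −0.82 (SE 0.51). For Bub1 and Ttk the log2 value was near the median of the list and the SE was larger than 0.50, beside 0.17 for Cdca8. Whether the checkpoint genes differ from the other members was not tested.

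Genes of the spindle itself held the lowest log2 fold change. Nusap1, which bundles spindle microtubules, stood at 24.9, 20.8, 48.4 and 34.4 CPM in cHet8, cHet11, cHet12 and cHet14 and at 8.18, 14.9, 17.8 and 7.67 CPM in cKO7, cKO9, cKO14 and cKO15. No cKO library reached the lowest cHet library (log2 −1.40, SE 0.37, edgeR adjusted p = 0.115). Its exons overlap those of Oip5 on the opposite strand (log2 −0.62, SE 0.30). Hmmr, a microtubule-associated hyaluronan receptor, ranged from 13.7 to 20.9 CPM in cHet and from 2.54 to 12.8 CPM in cKO. Ckap2l, a protein of the spindle poles, had overlapping groups (log2 −0.58, SE 0.31). Of the 6 spindle kinesin genes, Kif11, Kif2c, Kif4 and Kif22 had an unadjusted p under 0.05, and in none were the groups separate. Of all tested genes, 6.33% were lower at that level and 3.68% had all cKO libraries below all cHet libraries. Kif11, the motor that pushes spindle poles apart, stood at 22.7, 20.4, 43.01 and 32.8 CPM in cHet and 8.96, 20.9, 14.3 and 17.1 CPM in cKO, in the same order. Only cKO9 reached into the cHet range (log2 −0.96, SE 0.32, edgeR adjusted p = 0.193). Kif15, a motor that can stand in for Kif11, had the next smallest difference after Mad2l1 (log2 −0.32, SE 0.23), and Kif18b, a motor that shortens astral microtubules, had a log2 value of −0.85 (SE 0.41).

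Aurora A and Polo kinase genes were uneven. Plk1, the Polo kinase that acts from mitotic entry to cytokinesis, had 8.25 to 17.9 CPM in cHet and 3.30 to 7.34 CPM in cKO, without overlap (log2 −1.04, SE 0.37). Aurka, the kinase of the spindle poles, and its activator Tpx2 had log2 values of −0.37 and −0.39 (SE 0.25 and 0.24) with overlapping groups. Of the partners of the anaphase promoting complex, Ube2c, its ubiquitin-conjugating enzyme, had the second lowest log2 fold change of the 43 (−1.21, SE 0.44). It stood at 14.0, 18.4, 38.8 and 25.2 CPM in cHet8, cHet11, cHet12 and cHet14 and at 4.06, 14.3, 10.5 and 12.9 CPM in cKO7, cKO9, cKO14 and cKO15. The value in cKO9 reached that of cHet8. Cdc20, its mitotic activator, had a log2 value of −0.53.

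Genes of the central spindle and cytokinesis had the smaller differences among the larger groups, with log2 values from −0.75 to −0.41 and a median of −0.52. Prc1, which bundles the central spindle, stood at 37.2, 30.4, 46.0 and 58.0 CPM in cHet8, cHet11, cHet12 and cHet14 and at 17.6, 28.4, 24.2 and 31.7 CPM in cKO7, cKO9, cKO14 and cKO15. The highest cKO value lay just above the lowest cHet value (log2 −0.75, SE 0.25, edgeR adjusted p = 0.184). Racgap1, a subunit of centralspindlin with Kif23, ranged from 76.8 to 105 CPM in cHet and from 54.6 to 87.9 CPM in cKO. It was not called by edgeR (log2 −0.52, SE 0.18, adjusted p = 0.198), and it was called by voom (adjusted p = 0.0483) and DESeq2 (0.0294). Kif20a, Ect2 and Anln, all acting at the cleavage site, and Kif23 had overlapping groups. Cdca2, which brings a phosphatase to chromosomes as mitosis ends, had 5.63 to 11.9 CPM in cHet and 1.81 to 6.54 CPM in cKO (log2 −0.998, SE 0.43).

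**Figure D4:**
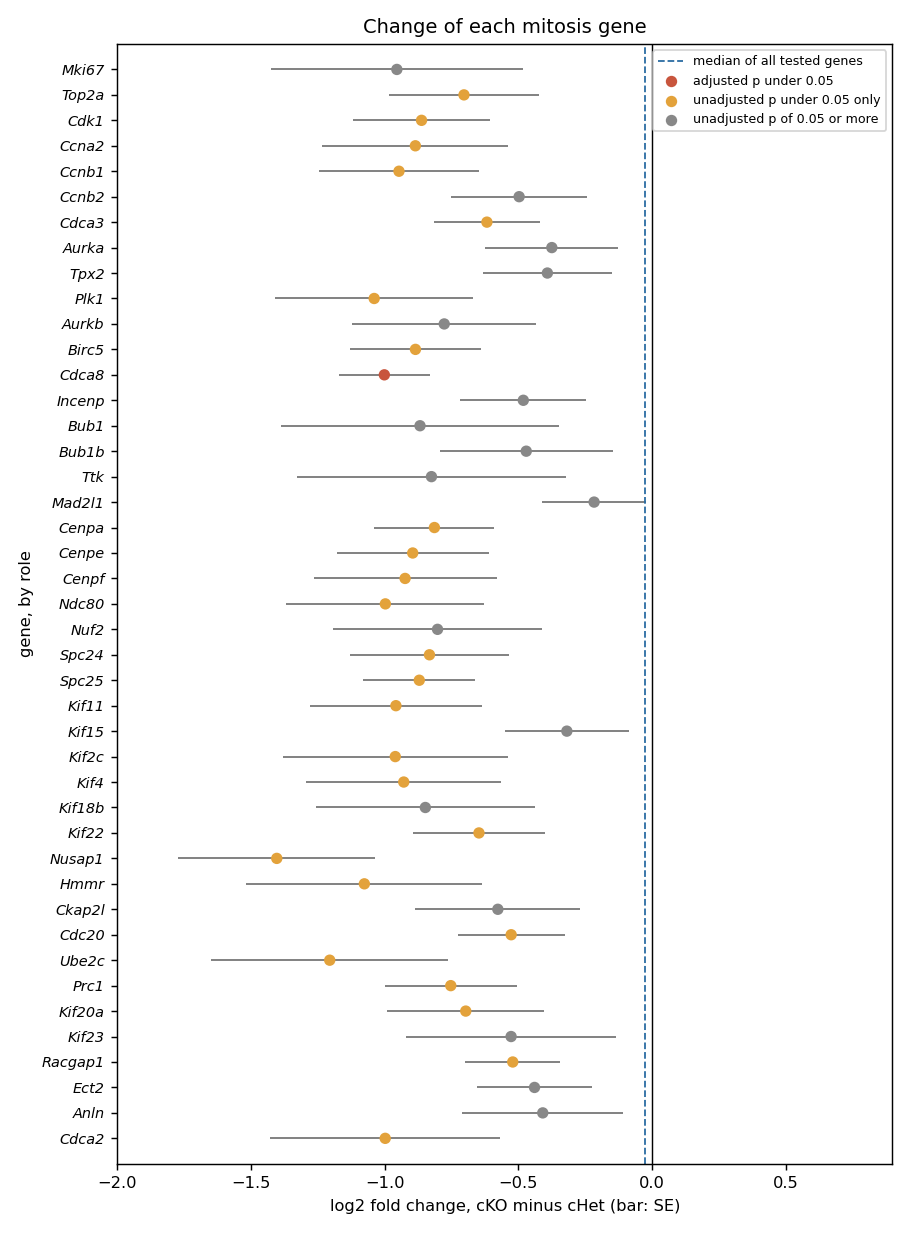
Points are log2 fold changes of cKO over cHet by edgeR with their SE, red for the gene with an adjusted p under 0.05, orange for an unadjusted p under 0.05 alone and grey for the rest; the dashed line is the median of all tested genes, −0.0267. All 43 points lie left of 0, from −1.40 for Nusap1 to −0.22 for Mad2l1.

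Other cell cycle genes were read from lists made beside the members. Of the 142 tested genes in these 7 lists, edgeR called 0. By voom 5 were higher and 2 lower, beside 5.96% and 1.26% of all tested genes. By DESeq2 8 were higher and 8 lower, beside 7.92% and 3.97%. Every gene called by voom (Anapc1, Anapc2, Ccnd2, Cdkn1c, Rbl2, Knl1 and Nek2) was called by DESeq2 as well. Cdc16 and Mybl2 were among those called by DESeq2 alone. Of 12 other mitotic entry genes, 4 were lower and 1 higher at an unadjusted p under 0.05, beside 6.33% and 10.8% of all tested genes. Nek2, a centrosome kinase, came nearest to the threshold, at 17.4, 21.6, 22.6 and 20.3 CPM in cHet8, cHet11, cHet12 and cHet14 and 9.25, 13.3, 10.9 and 11.8 CPM in cKO7, cKO9, cKO14 and cKO15 (log2 −0.86, SE 0.18, edgeR adjusted p = 0.0658). Of 28 other kinetochore genes, 5 were lower and 0 higher, among them Knl1 (log2 −1.14) and Ska3 (−1.33), and 21 of the 28 had negative values. Of 16 cohesin and condensin genes, 2 were lower and 1 higher, with the condensin genes Ncaph and Smc4 at −0.84 and −0.39 and the cohesin gene Stag1 at 0.51.

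Regulators and neighbouring phases showed other counts. Of 18 genes of the anaphase promoting complex and separase, 1 was lower and 5 higher at an unadjusted p under 0.05. Of all tested genes, 6.33% were lower and 10.8% higher at that level. The subunit genes Anapc1, Anapc2 and Cdc16 of the complex had log2 values of 0.64, 0.33 and 0.66. Of 14 genes of mitotic transcription, 3 were lower and 1 higher at an unadjusted p under 0.05, 7 had negative and 7 positive values, and the median log2 fold change was 0.013. All cKO values lay below all cHet values in 2 of the 14 and above in 1, beside 3.68% and 6.46% of all tested genes. The genes with the smallest p included Rbl2 and Mybl2. Mybl2, the B-MYB gene of the complex that activates CHR promoters, had a mean of 4.05 ± 0.884 CPM in the cHet libraries and of 1.92 ± 0.471 CPM in the cKO libraries (SD, n = 4 each, log2 −1.08, edgeR adjusted p = 0.147). Rbl2, which encodes the pocket protein p130 of the repressive DREAM complex, stood at 48.4 ± 5.28 and 78.1 ± 18.9 CPM (log2 0.69, edgeR adjusted p = 0.115). Neither was called by edgeR, while DESeq2 called both and voom called Rbl2. Foxm1, another activator of mitosis genes, had a log2 value of −0.04 (SE 0.39).

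The genes of DNA replication and the G1/S step, active in the same dividing cells before mitosis, had a median log2 fold change of −0.06. At an unadjusted p under 0.05, 2 of the 38 were lower and 0 higher, beside 6.33% and 10.8% of all tested genes. Mcm10, which acts when replication origins fire, had a log2 value of −0.97, and Uhrf1, which maintains DNA methylation, −0.73. Mean log2 CPM over the 38 genes ran from 3.60 to 4.07 in cHet and from 3.48 to 3.99 in cKO, so the groups overlapped almost fully. Over the 43 mitosis genes it ran from 3.89 to 4.68 in cHet and from 3.02 to 3.67 in cKO. The mitosis mean minus the replication mean was −0.12, 0.31, 0.61 and 0.40 in cHet8, cHet11, cHet12 and cHet14 and −0.69, 0.08, −0.31 and −0.31 in cKO7, cKO9, cKO14 and cKO15. On this measure cHet8 lay below cKO9, so the groups overlapped. Among 16 tested G1 cyclins and CDK inhibitors, 3 were higher and 1 lower, with Ccnd2 at 1.32, the CDK inhibitor gene Cdkn1c at 1.02 and Cdk4 at 0.37. The D-type cyclin gene Ccnd1, a known target of beta-catenin, had a log2 value of −0.29 (SE 0.32).

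Markers of other cells differed between libraries as well. The 8 neutrophil markers summed to 1361, 747, 18506 and 50.99 CPM in cHet8, cHet11, cHet12 and cHet14 and to 741, 87.4, 1288 and 23.7 CPM in cKO7, cKO9, cKO14 and cKO15. Of the 6 tested, 5 were lower at an unadjusted p under 0.05, beside 6.33% of all tested genes. By edgeR 0 of the 6 were called, beside 0.0558% of all tested genes called lower. Ltf alone gave 1177 of the 1288 CPM in cKO14, where S100a8 stood at 43.1 CPM. In cHet8, Ltf gave 301 of the 1361 CPM and S100a8 gave 283 CPM. The similar sums of cKO14 and cHet8 thus rested on different markers and do not show similar neutrophil content. The library with the highest neutrophil sum, cHet12, also had the highest mitosis level. The next highest mitosis sum, 1006 CPM in cHet14, stood beside a neutrophil sum of 50.99 CPM. The relation between the sums was not tested. The precursor gene Mpo was at 0 in cKO7, cKO14 and cKO15 and at most 24.1 CPM, and Elane was at 0 in cHet14 and all 4 cKO libraries and at most 7.33 CPM. The number of the 43 mitosis genes above the highest cKO value was 22 in cHet8, 20 in cHet11, 41 in cHet12 and 40 in cHet14, beside 20.2%, 23.9%, 21.7% and 24.7% of all tested genes. The number below the lowest cHet value was 37 in cKO7, 30 in cKO9, 34 in cKO14 and 23 in cKO15, beside 28.4%, 18.7%, 24.4% and 31.8%. Without cHet12, 42 of the 43 log2 fold changes were negative (52.2% of all tested genes), with a median of −0.61. In that fit 11 had an unadjusted p under 0.05, beside 4.97% of all tested genes, and 0 were called by edgeR.

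The markers of the labelled tissue differed too. The 10 markers of apical papilla and pulp, a list that holds Cxcl12, summed to 1274, 507, 1143 and 684 CPM in cHet8, cHet11, cHet12 and cHet14 and to 4269, 2674, 3583 and 4915 CPM in cKO7, cKO9, cKO14 and cKO15. Of the 10, edgeR called 3 higher and 0 lower, 8 were higher and 1 lower at an unadjusted p under 0.05, and in 6 all cKO libraries lay above all cHet libraries. Of all tested genes, 1.08% were called higher, 10.8% were higher at that level, and 6.46% had cKO above cHet. The median log2 fold change of the 10 was 1.73, and no fit of the mitosis genes was made with this list as a covariate.

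Most values of macrophage and olfactory markers were lower in cKO, and most of general mesenchyme markers higher. The 8 macrophage markers summed to between 175 and 3016 CPM in cHet and between 111 and 332 CPM in cKO. Lyz2 alone gave 2455 of the 3016 CPM, the sum of cHet12. Of the 8 markers, 6 were lower at an unadjusted p under 0.05, beside 6.33% of all tested genes. The 8 markers of olfactory sensory neurons summed to between 6160 and 11794 CPM in cHet and 5587 and 6941 CPM in cKO, with 4 of 8 lower at that level. The 8 markers of olfactory progenitors, which can divide, summed to 2732 ± 389 CPM in cHet and 2063 ± 395 CPM in cKO (2 of 8 lower). The 12 general mesenchyme markers summed to 8815 ± 3787 and 18519 ± 5405 CPM (SD, n = 4 each). At that level 6 of the 12 were higher and 1 lower, beside 10.8% and 6.33% of all tested genes. In each of these lists 0 markers were at 0 in all 8 libraries. The part of these cells in the mitosis values was not tested. The following fits cannot separate it from genotype, because the scores (mean log2 CPM of a marker list) themselves differed between the groups. The mean mesenchyme score was 7.20 in cHet and 8.07 in cKO, and that of olfactory neurons 9.24 and 8.83. No fit used the macrophage markers.

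The direction held for nearly all members when a marker score was added to the edgeR fit as a covariate, while fewer passed an unadjusted p under 0.05. With the neutrophil score, chosen after seeing the data, 43 log2 values were negative (50.1% of all tested genes; median of the members −0.80), and 10 passed, beside 4.23%. With the olfactory progenitor score, also chosen after seeing the data, 11 passed, beside 4.58%. With the mesenchyme score 43 were negative (48.6%; median −0.98), and 21 passed, beside 4.07%. With the olfactory neuron score 42 were negative (46.5%; median −0.69), and 7 passed, beside 1.99%. In all 4 of these fits 0 members were called, beside at most 0.0093% of all tested genes lower. Scaled to the mesenchyme markers, 43 were negative and 43 passed, but so did 49.6% of all tested genes, of which 93.8% were negative.

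The count called depended on the test. DESeq2 called 17 of the 43 lower, beside 3.97% of all tested genes, and limma voom called Cdca8 and Racgap1, beside 1.26%. The same 2 genes were called by edgeR without cKO9, beside 0.648%. Without a filter on low counts 0 were called, beside 0.0136%. Without cHet11, 28 had an unadjusted p under 0.05, the most with any 1 library left out, beside 4.5% of all tested genes.

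**Figure D5:**
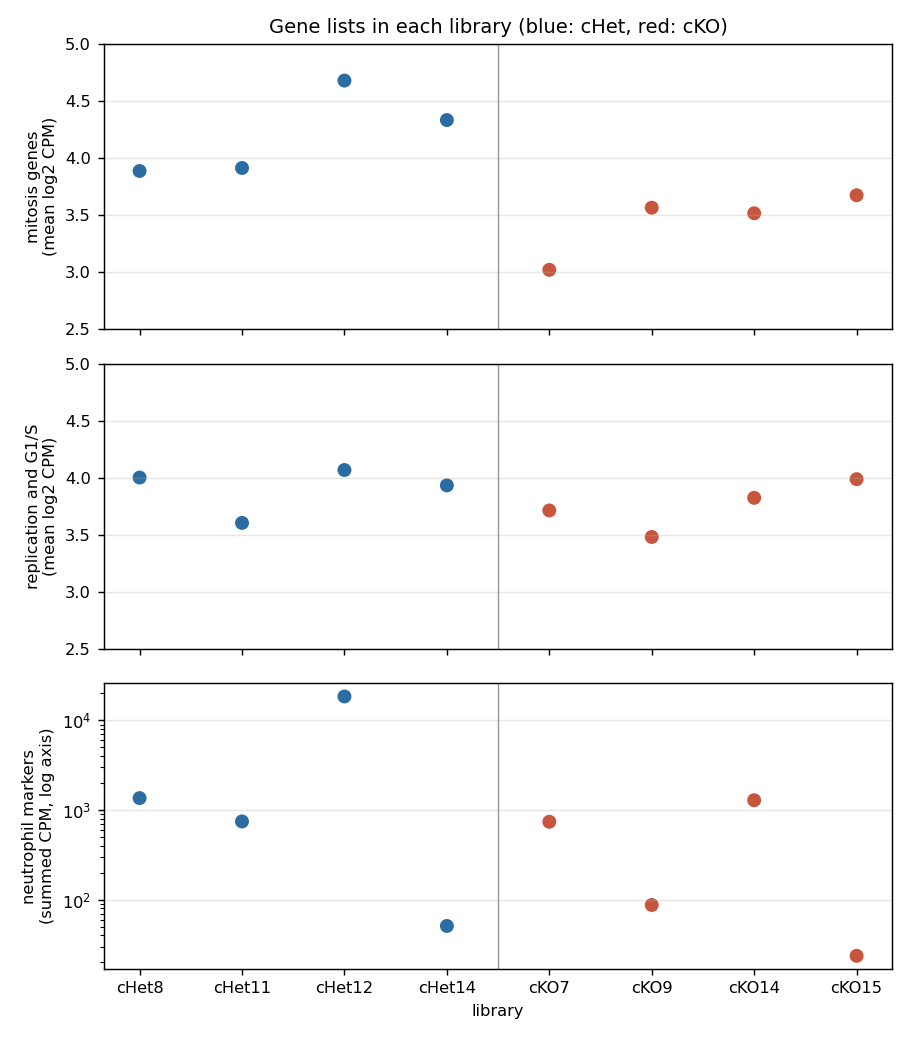
The upper panels give mean log2 CPM over the 43 mitosis genes and over 38 genes of DNA replication and G1/S in each library, on the same axis from 2.5 to 5, and the lowest the summed CPM of 8 neutrophil markers on a log axis. The mitosis means of cHet (3.89 to 4.68) and cKO (3.02 to 3.67) do not overlap, while the replication means do, and cHet12 has the highest neutrophil sum, 18506 CPM.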

How the data were processed

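Per the labels' protocols, RNA of sorted cells was amplified with SMART-Seq v4. The authors deposited raw counts, whole numbers for each gene in each library. Trim Galore, STAR, GRCm39 and mm39 stand in the submitters' processing notes; how reads were counted, on which annotation, and any version, is not given there. Of 56748 identifiers, 52073 matched a symbol once the version suffix was dropped, and a symbol with several kept the one with most counts. Column names match a group but no sample title, so each was assigned to its group alone.

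Groups (4 libraries each, 44444033 to 50051392 counts) were tested with edgeR 4.0.16 under R 4.3.3 (TMM factors, default filter by group, quasi-likelihood F test, genotype as sole term, Benjamini-Hochberg over 21508 genes, two-sided); the common biological coefficient of variation was 0.553. The SE is the log2 fold change over the root of F. Exact permutation tests run over 70 assignments. Means of log2 CPM use a prior count of 2. Alternatives used limma 3.58.1 (voom) and DESeq2 1.42.0, other scalings, filters, covariates and omitted libraries. On simulated counts of 21508 genes in 4 against 4 libraries, 16% of genes changed 2-fold and 66% changed 4-fold were called, 83% and 96% had an unadjusted p under 0.05, and 3 of 85 calls were false.

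The members, lists, roles and motifs were chosen with earlier results of these data known. Full statistics were given for called members, the next 10 by p, Mki67, Top2a, Cdk1, Ccnb1 and the passenger complex, and values for both extremes; of each other list up to 3 genes with the smallest p were named. Foxm1, Ccnd1 and further members were named outside this rule. Promoters are RefSeq sequences of GRCm38.p6; no coordinates of the counts were used.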

Additional observations from a re-analysis of the deposited data

Results flagged for a closer look

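In 5 of 86 sets of 4 libraries (43 genes in each of 2 groups), 1 library lay far from the other three; chance gives about 1 in 20 such sets. In cHet12, Aurka stood at 24.6 CPM, with the nearest other cHet library at 14.0. Plk1 stood in cHet12 at 17.9 CPM, with the nearest at 8.94, and Incenp at 28.1 CPM, with the nearest at 16.6. Anln stood at 26.8 CPM in cHet14, with the nearest at 17.9. In cKO7, Ccna2 stood at 8.85 CPM, with the nearest other cKO library at 18.0. Without cHet12 the log2 fold changes were −0.10 for Aurka, −0.70 for Plk1 and −0.24 for Incenp.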

How the results depend on the processing

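Across 20 other settings, between 42 and 43 of the 43 mitosis genes had a negative log2 fold change; the exceptions were Bub1 with the olfactory score as covariate (0.12) and Kif23 without cHet12 (0.038; leaving out 1 library gave −0.73 to 0.038). The number called lower by adjusted p was 17 by DESeq2, 2 by voom, and 0 with mesenchyme scaling, without a filter, or with the mesenchyme, olfactory, neutrophil or olfactory progenitor score as covariate; leaving out 1 library gave 0 to 2, the 2 (Cdca8 and Racgap1) without cKO9. None was called higher in any setting. The number lower at an unadjusted p under 0.05 was 43 with mesenchyme scaling, where the median of all tested genes was −1.31 and that of the members −1.999. It was 7 with the olfactory, 10 with the neutrophil and 11 with the olfactory progenitor score as covariate, and 11 to 28 with 1 library left out. The neutrophil and progenitor covariates were chosen after seeing the data. Over all genes, 232 were higher and 12 lower; the counts were 1704 and 853 by DESeq2, 1281 and 271 by voom, 609 and 32 without cHet11 and cKO9, 10 and 2 with the mesenchyme score, 0 and 0 with mesenchyme scaling or the olfactory or neutrophil score, 11 and 0 with the olfactory progenitor score, and 5 lower without a filter. With 1 library left out they ran from 0 to 816 higher and from 0 to 144 lower, both maxima without cKO9. Ctnnb1 turned to −1.21 with mesenchyme scaling, −0.049 with the mesenchyme and −0.066 with the olfactory score. The cause of these changes was not tested. Within 50 bases of the start, 1 member had an E2F and 2 a TCF/LEF match. Exons of 12 members, Cdca8 among them, overlap those of another gene, and 11 of the 12 had an unadjusted p under 0.05. Among the other 31, all had negative values and 15 an unadjusted p under 0.05, beside 6.33% of all tested genes lower. In some overlapping pairs the other gene had more total counts, such as 45637 for Cdc23 beside 5514 for Kif20a and 20437 for Pdzd11 beside 3148 for Kif4. In others it had fewer, such as 1481 for Oip5 beside 8438 for Nusap1. How far the overlap changed the members' counts was not tested. No paired analysis was possible because the column numbers match no replicate number in the titles.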
